A study of Mus musculus with 20 samples.

Results

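The calmodulin-dependent kinases are the enzymes that read a rise in calcium inside a neuron and pass it on by phosphorylation. They were taken here as 10 genes by symbol, Camkk1 and Camkk2, Camk1, Camk1d and Camk1g, Camk4, and Camk2a, Camk2b, Camk2d and Camk2g, out of 24419 genes in the deposited count table. All 10 were among the 14411 genes that passed the low-count filter, so none was lost. Messenger RNA was sequenced from dissociated hippocampal cultures of C57BL6 mouse embryos at embryonic day 18, with the tissue of 4 embryos pooled. The cultures had received 4 µM cytosine arabinoside (AraC), which is toxic to cells that divide, between days 3 and 6, and were used at day 10 in vitro.

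The 4 groups held 5 libraries each and differed in what was applied for 2 min. The first group, called TPA below, received 50 µM glutamate with 10 µM TPA, or tris(2-pyridylmethyl)amine, which binds zinc ions, after 1 min in TPA alone. The second, called zinc, received 50 µM glutamate with 10 µM ZnCl2. The third received 50 µM glutamate alone, and the control group received the imaging medium with neither. RNA was taken from every group 90 min later. Zinc and TPA were always given with glutamate in the groups analysed here, and every culture is a mixture of the cells that survive dissociation. The comparisons ask how transcripts respond to a brief glutamate pulse and how the response depends on zinc.

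As background, calcium that enters through glutamate receptors and voltage-gated channels binds calmodulin, and calcium-loaded calmodulin switches these kinases on. CaMKK1 and CaMKK2 are the upstream kinases. They phosphorylate the activation loop of CaMK1 and CaMK4, and CaMKK2 also acts on AMP-activated protein kinase. CaMK4 is largely nuclear and phosphorylates the transcription factor CREB, while CaMK1 enzymes act on growth of axons and dendrites. CaMKII, built from the products of the Camk2 genes, is a large ring-shaped enzyme that is abundant at excitatory synapses and is central to long-term potentiation in the hippocampus. All of this regulation acts on the proteins, whereas the values below are transcript levels.

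Promoters are shown for Camkk2 and Camk2b, whose transcripts differed most between TPA and zinc and varied together across libraries, and for Camk1g, whose correlation with Camkk2 was -0.71 over 20 libraries and -0.34 over 17 without the 3 farthest from their group means, and with Camk2b -0.58 and -0.25. The sequences are those of RefSeq for build GRCm38.p6, from 250 bases before to 50 bases after the annotated start, written 5′ to 3′ on the gene's own strand. All 3 genes lie on the minus strand. The Camkk2 window is chr5:122779361-122779660, the Camk2b window is chr11:6065699-6065998 and the Camk1g window is chr1:193370233-193370532. Capitals mark GC boxes, searched as GGGCGG on both strands.
Camkk2: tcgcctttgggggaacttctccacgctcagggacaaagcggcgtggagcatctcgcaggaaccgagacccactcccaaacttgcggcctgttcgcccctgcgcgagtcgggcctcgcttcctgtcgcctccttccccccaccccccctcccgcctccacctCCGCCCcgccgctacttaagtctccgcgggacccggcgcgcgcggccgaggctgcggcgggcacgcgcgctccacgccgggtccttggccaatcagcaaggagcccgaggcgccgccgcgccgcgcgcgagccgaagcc
Camk2b: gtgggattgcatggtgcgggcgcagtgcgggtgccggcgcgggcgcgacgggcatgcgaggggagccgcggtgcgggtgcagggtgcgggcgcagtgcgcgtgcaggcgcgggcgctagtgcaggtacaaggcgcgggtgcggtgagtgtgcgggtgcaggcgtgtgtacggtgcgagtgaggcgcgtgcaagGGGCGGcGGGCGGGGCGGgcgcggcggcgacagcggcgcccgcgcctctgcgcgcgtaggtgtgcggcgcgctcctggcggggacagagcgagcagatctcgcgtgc
Camk1g: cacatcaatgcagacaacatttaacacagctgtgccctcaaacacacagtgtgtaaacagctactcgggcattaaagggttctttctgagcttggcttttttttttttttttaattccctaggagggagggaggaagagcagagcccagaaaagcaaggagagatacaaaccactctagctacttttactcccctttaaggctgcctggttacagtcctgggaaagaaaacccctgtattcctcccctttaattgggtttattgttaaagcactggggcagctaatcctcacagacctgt

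The Camkk2 window was 73.3% G and C and held 1 GC box, on the opposite strand, starting at -89 from the start site. The Camk2b window was 77.3% G and C and held 3 GC boxes, at -57, -50 and -45, the last pair of which overlap by a base. The Camk1g window was 44.7% G and C and held no GC box. A GC box stood in 35.7% of all 32851 promoter windows of the same length. None of the 3 windows held the cAMP response element TGACGTCA, which CREB binds and which 1.79% of all windows contain, its half-site TGACG, found in 20.8% of them, or the AP-1 site TGANTCA, found in 7.81%. Windows were read for 7 of the 10 genes, and TGACG occurred in those of Camk1, at -185, and Camkk1, at -166. GC boxes also stood in the windows of Camkk1 (75.3% G and C), Camk2d (70.3%) and Camk1d (48.7% and 71.3%). The Camk1 window (60%) held no GC box. Whether GC boxes go with the transcript profiles of these genes was not tested. These matches describe the letters in the window and not binding.

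Library totals ran from 28692470 to 40934630 counts, so even Camk1, the member with the lowest counts, was far above the level of 3 counts in a library. The cultures carried high levels of markers of pan-neuronal, excitatory, GABAergic and astrocyte identity, all of whose listed genes were tested. Summed over each list, in the 20 libraries, pan-neuronal markers gave 6058 to 7242 CPM (counts relative to library size), excitatory markers 1051 to 1353, GABAergic markers 1107 to 1464 and astrocyte markers 697 to 920. Microglial markers summed to 2.38 to 3.85 CPM, endothelial markers to 2.83 to 5.42, fibroblast and meningeal markers to 2.99 to 6.47 and oligodendrocyte-lineage markers to 22.8 to 30.1, and all 4 blood markers were at 0 counts in every library. Fewer cells of a type and less RNA per cell cannot be told apart in such bulk samples. Glutamate replicates 4 and 5 and zinc replicate 5 stood farthest from their group means over all genes.

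Transcript levels of the 10 genes, compared per unit of length in TPM (length-scaled transcript counts, as deposited), spanned more than an order of magnitude. Camk2b was the most abundant, at 811 ± 69.2 TPM (SD over 20 libraries; lowest 674, highest 928), and ranked 117th of 24419 genes. Camk2a followed at 380 ± 47.8 TPM (311 to 463), ranking 441st. Camk2b exceeded Camk2a in all 20 libraries, and their ranges did not overlap. Camk2g, at 110 ± 3.47 TPM (102.3 to 115), was below Camk2a in every library without overlap. Together these 3 headed the family, with Camk2b 2.14-fold above Camk2a and Camk2a 3.45-fold above Camk2g.

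Below Camk2g, which exceeded Camk4 in 19 of 20 libraries, the levels lay close together. Camk4 averaged 80.5 TPM (55.3 to 119), Camk1g 77.5 (67.8 to 84.1), Camk1d 70.7 (60.2 to 85.1) and Camkk2 67.2 (49.5 to 83.1). The order among these 4 is not fixed, since Camk4 exceeded Camk1g in 10 of 20 libraries and Camk1d exceeded Camkk2 in 13 of 20. Camk2d, the CaMKII gene best known from heart, averaged 45.0 TPM (40.0 to 53.2) and stood below Camkk2 in all 20 libraries, although the ranges over libraries overlap. Camk1 averaged 41.9 TPM (35.8 to 46.7) and Camkk1, the lowest, 36.2 TPM (32.4 to 39.1), with Camk1 the higher in 19 of 20 libraries. Of the 10 genes, Camk1 alone shares exon bases with another counted gene. It shares 63 bases, 4.39% of its exon length, with Ogg1 on the opposite strand, and how reads there were assigned is not given.

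**Figure D1:**
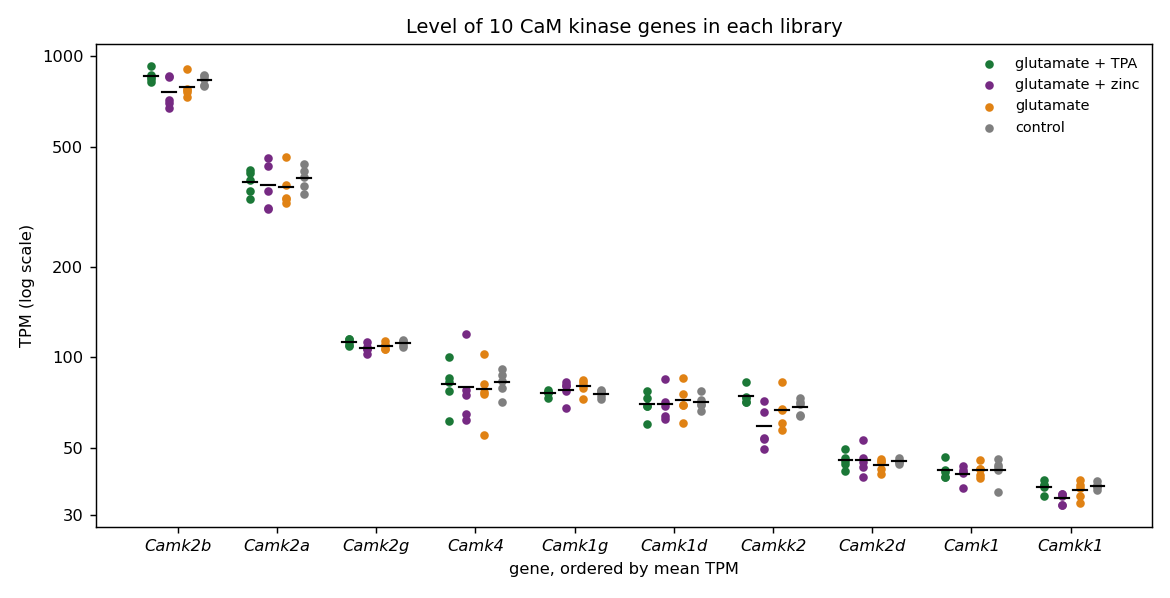
Deposited TPM (log axis) of each CaM kinase gene in each of 20 libraries, with a bar at the mean of each group of 5 and genes in order of their mean level. Camk2b (674 to 928 TPM) and Camk2a (311 to 463 TPM) stand clear of the other genes, while Camk4, Camk1g, Camk1d and Camkk2 overlap.

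Camk2b held the largest share of the CaMKII transcripts in every library. Taking the summed TPM of the 4 Camk2 genes in a library as 100%, Camk2b, whose product also binds actin filaments, held 61.5 ± 1.08% in TPA, 59.1 ± 0.70% in zinc, 60.3 ± 1.1% in glutamate and 60.2 ± 0.84% in control cultures (SD, n = 5 each). The 5 TPA libraries ran from 60.6% to 63.3% and the 5 zinc libraries from 58.1% to 59.9%, so these groups did not overlap. No test was made of this share. In CPM, the TPA and zinc groups overlapped for Camk2b, and 3.13% of all genes had groups without overlap in that comparison. That percentage is for CPM of single genes and is no reference for a share within 4 genes, for which none was computed. Camk2a, the isoform gene of excitatory forebrain neurons, held 27.2 ± 1.41% in TPA, 29.0 ± 1.78% in zinc, 27.9 ± 1.71% in glutamate and 28.5 ± 1.32% in control, and all of these groups overlapped. Camk2g held 8.02 ± 0.52% in TPA, 8.42 ± 0.95% in zinc, 8.40 ± 0.77% in glutamate and 8.08 ± 0.39% in control, running from 7.03% to 9.42% over all libraries. Camk2d held the rest, at 3.24 ± 0.13% in TPA, 3.56 ± 0.45% in zinc, 3.37 ± 0.29% in glutamate and 3.27 ± 0.14% in control. The ratio of Camk2b to Camk2a TPM averaged 2.27 ± 0.16 in TPA, 2.05 ± 0.15 in zinc, 2.17 ± 0.17 in glutamate and 2.12 ± 0.13 in control.

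**Figure D2:**
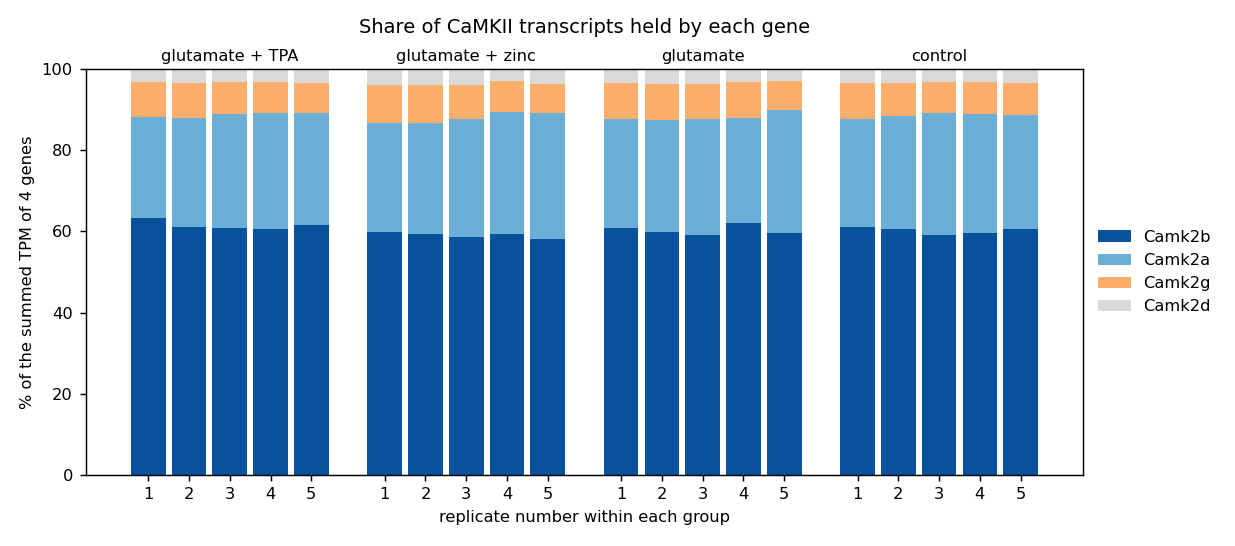
Share of the summed TPM of Camk2b, Camk2a, Camk2g and Camk2d held by each gene (vertical axis, %), 1 bar per library, grouped by treatment. Camk2b holds between 58.1% and 63.3% in every library and Camk2a most of the remainder.

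No CaM kinase gene passed the edgeR test in any comparison. Differences were tested over all genes with edgeR's quasi-likelihood test and Benjamini-Hochberg adjustment at 0.05, on CPM from library sizes scaled by TMM. Of the 10 genes, 0 passed in TPA against control, where 0.0694% of all tested genes did, 0 in zinc against control (0.0416%), 0 in glutamate against control (0.0208%), 0 in TPA against glutamate (0%), 0 in zinc against glutamate (0%) and 0 in TPA against zinc (0.513%). With shares this small in the background, no call among 10 genes does not set them apart. DESeq2 called 1 of the 10 in TPA against zinc, Camkk2, where it called 4.14% of all genes with an adjusted p, and 0 in the other 5 comparisons, where it called 0.0694% in TPA against control, 0.522% in zinc against control, 0.0991% in glutamate against control, 0.00694% in TPA against glutamate and 0.0139% in zinc against glutamate.

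At an unadjusted p under 0.05 the genes counted 3 of 10 in TPA against zinc (Camkk2, Camkk1 and Camk2b), where 16% of all genes reached it, and 2 of 10 in zinc against control (Camkk1 and Camkk2), against 11.1% of all genes. The other 4 comparisons had 0 of 10, beside 3.09% of all genes in TPA against control, 4.98% in glutamate against control, 7.15% in TPA against glutamate and 5.98% in zinc against glutamate. The median log2 difference of the 10 genes was 0.0016 in TPA against control, -0.06 in zinc against control, -0.05 in glutamate against control, 0.06 in TPA against glutamate, -0.02 in zinc against glutamate and 0.03 in TPA against zinc, and the median of all tested genes lay between -0.0020 and 0.0025. Comparisons that share a group of libraries are not independent of each other.

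**Figure D3:**
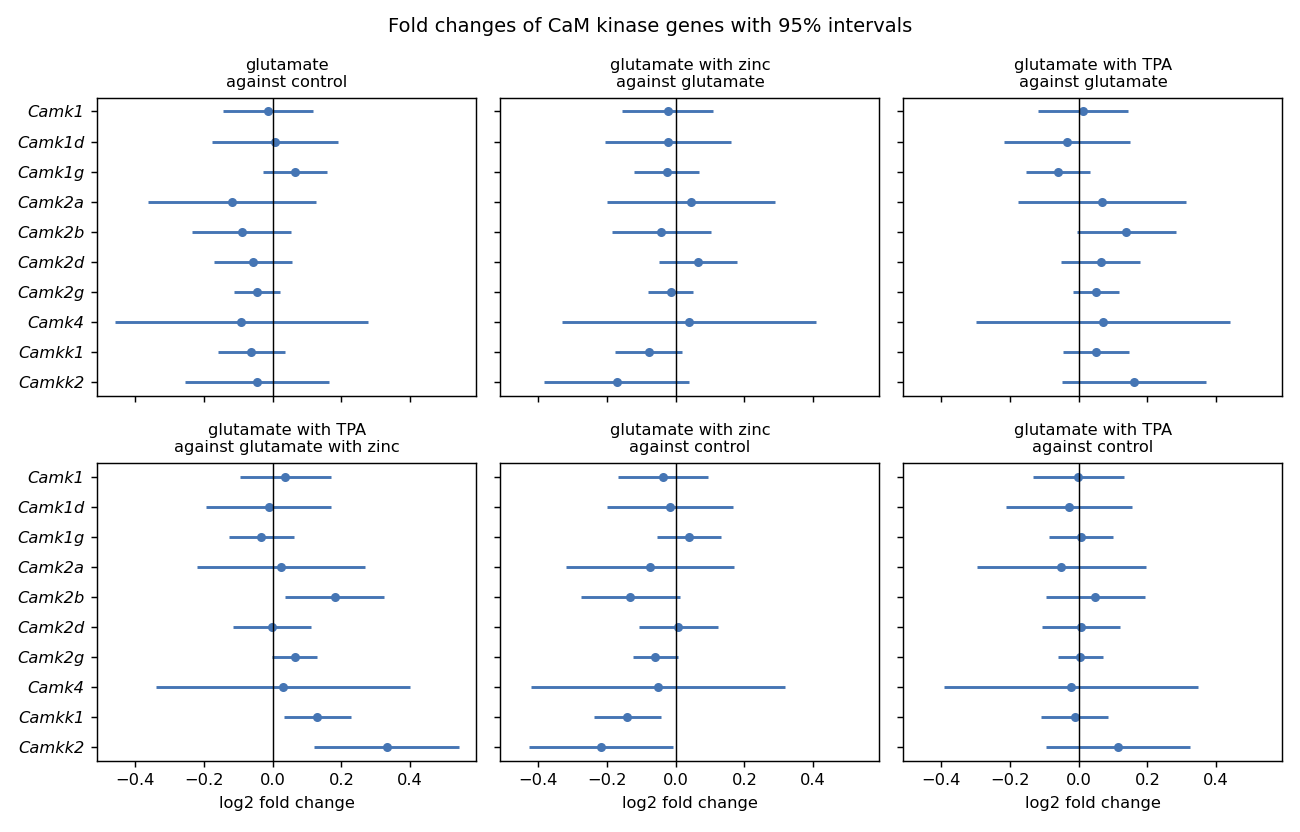
Log2 fold change (first-named group over second) of each CaM kinase gene in the 6 comparisons, with 95% intervals from the edgeR fit of 20 libraries. The widest intervals are those of Camk4 and the narrowest those of Camk2g, and Camkk2 in TPA against zinc (0.33, 0.12 to 0.54) lies farthest from 0.

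Of the upstream kinases, Camkk2 showed the largest difference of the 10 genes. Camkk2 had 117.7, 113.2, 119.5, 120.4 and 133.8 CPM in the TPA libraries, against 87.7, 79.6, 87.6, 108.4 and 117.5 CPM in the zinc libraries. Of the TPA libraries, 4 lay above the highest zinc library and TPA replicate 2 lay between zinc replicates 4 and 5, so the groups overlapped slightly. The mean was 121 ± 7.72 CPM in TPA and 96.2 ± 16.0 CPM in zinc (SD, n = 5 each), a 1.26-fold difference (log2 0.33, SE 0.10, 95% interval 0.12 to 0.54) with an edgeR adjusted p of 0.11, which missed the threshold. Glutamate alone gave 107.9, 92.5, 105.8, 98.9 and 136.0 CPM, and control cultures 102.8, 105.5, 115.7, 120.1 and 114.5 CPM. The spread was wider in zinc and in glutamate than in TPA and control, with replicate 5 the highest in each of the glutamate-treated groups.

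The Camkk2 difference between TPA and zinc depended on how it was tested. Over 17 alternatives its edgeR or DESeq2 adjusted p ran from 0.0053 to 0.295, and 5 passed. These were DESeq2 (adjusted p = 0.03), leaving out zinc replicate 4 (0.0423, log2 0.38) or zinc replicate 5 (0.0428, log2 0.41), leaving out the 3 libraries farthest from their group means (0.0053, log2 0.41), and a fit given with the other settings below. Zinc replicates 4 and 5 held the highest Camkk2 values in zinc (108.4 and 117.5 CPM), so leaving out either widens the difference. The 3 farthest libraries include zinc replicate 5. Calls over all genes in TPA against zinc also rose, from 74 in the main fit to 481 in DESeq2 and 899 without zinc replicate 4. These passes come from the same libraries and are not independent evidence. In the authors' deposited table for TPA and zinc, Camkk2 had a log2 fold change of -0.19 (SE 0.06), coded there as zinc over TPA and shrunken. Its DESeq2 adjusted p there was 0.0308. It was the 1 CaM kinase gene with an adjusted p under 0.05 in any of the authors' deposited tables. Camkk2 had the highest transcript GC content of the 10 genes, 56.8% against a median of 50.8% over genes, and with a GC correction the log2 difference was 0.29 with an adjusted p of 0.214 in edgeR.

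Set against the other groups, Camkk2 lay lower in zinc and higher in TPA without passing the test. In zinc against control the log2 difference was -0.22 (SE 0.10, edgeR adjusted p = 0.437), with 3 of 5 zinc libraries below the lowest control library. In zinc against glutamate it was -0.17 (SE 0.10, edgeR adjusted p = 0.88). In TPA against glutamate it was 0.16 (SE 0.10, edgeR adjusted p = 0.753), in TPA against control 0.11 (SE 0.10, edgeR adjusted p = 1) and in glutamate against control -0.05 (SE 0.10, edgeR adjusted p = 0.991).

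Camkk1, the other upstream kinase, had small differences between libraries and, like Camkk2, its lowest group mean in zinc. It had 40.2, 44.0, 43.0, 43.2 and 43.1 CPM in the TPA libraries, against 37.2, 39.8, 37.3, 40.9 and 40.1 CPM in the zinc libraries. Control libraries held 42.7, 41.8, 42.8, 43.3 and 44.6 CPM, and glutamate libraries 42.6, 37.3, 38.7, 42.4 and 45.2 CPM. All 5 zinc libraries lay below all 5 control libraries, and 2.66% of all genes had groups without overlap in that comparison. In the other 5 comparisons 0 of the 10 genes had groups without overlap, beside 1.33% of all genes in TPA against control, 0.985% in glutamate against control, 1.03% in TPA against glutamate, 0.701% in zinc against glutamate and 3.13% in TPA against zinc.

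In zinc against control Camkk1 averaged 39.1 ± 1.72 CPM in zinc and 43.0 ± 1.01 CPM in control (SD, n = 5 each), a log2 difference of -0.14 (SE 0.05, 95% interval -0.24 to -0.04, edgeR adjusted p = 0.297). In TPA against zinc the log2 difference was 0.13 (SE 0.05, 95% interval 0.03 to 0.23, edgeR adjusted p = 0.17), with 4 of 5 TPA libraries above the highest zinc library. The other 4 log2 differences of Camkk1 lay between -0.08 in zinc against glutamate and 0.05 in TPA against glutamate, and none passed.

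**Figure D4:**
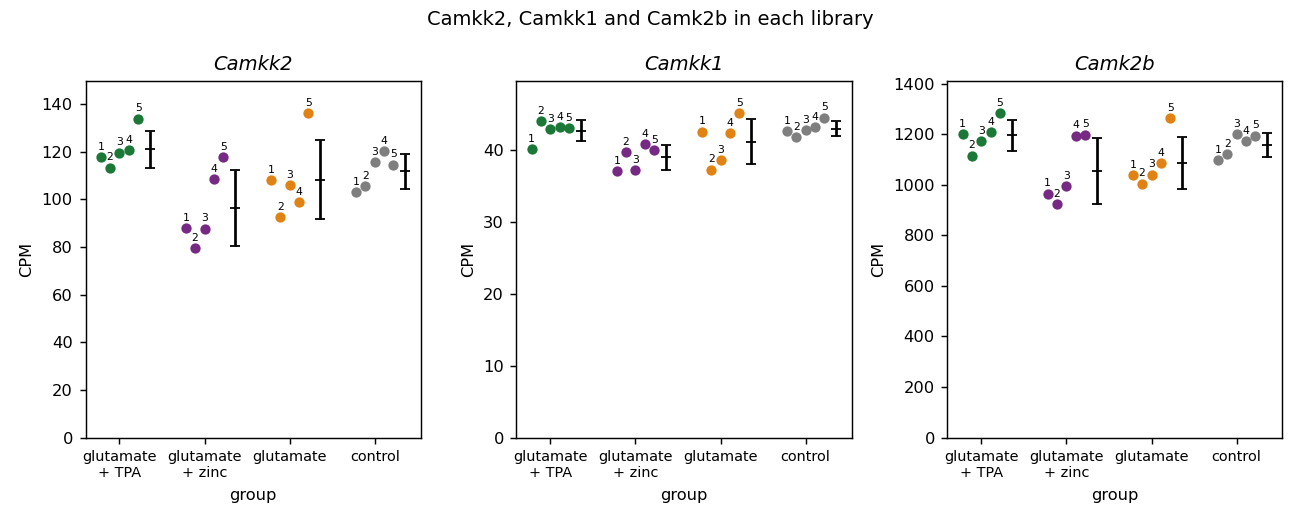
CPM of Camkk2, Camkk1 and Camk2b in each library (numbers are replicate numbers within a group), with the mean and SD of each group of 5 to the right of its points. In all 3 panels most TPA libraries lie above most zinc libraries, and the groups still overlap.

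Among the substrates of these kinases, Camk4, whose product is largely nuclear, had 255.7, 334.7, 318.9, 352.0 and 410.7 CPM in TPA libraries. It had 252.9, 262.3, 307.9, 322.2 and 492.2 in zinc, 309.9, 307.6, 325.4, 227.7 and 422.3 in glutamate, and 288.7, 326.7, 376.8, 361.8 and 342.5 in control libraries. The groups overlapped widely, and the highest library, zinc replicate 5, held 2.16 times the lowest, glutamate replicate 4. In TPA against zinc the log2 difference was 0.03 (95% interval -0.34 to 0.40), and in glutamate against control -0.09 (-0.46 to 0.28). These intervals are the widest of the 10 genes.

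Camk1d, a CaMK1 gene expressed in brain, had 149.3 to 188.4 CPM in TPA, 151.6 to 208.9 in zinc, 148.7 to 209.3 in glutamate and 160.2 to 188.4 in control libraries. Camk1g, whose product is anchored in membranes by a lipid, had 59.6 to 63.5 CPM in TPA, 55.7 to 66.7 in zinc, 59.9 to 68.9 in glutamate and 59.8 to 63.4 in control. Of the glutamate libraries, 4 lay above the highest control library for Camk1g, yet the log2 difference was 0.07 (95% interval -0.03 to 0.16, edgeR adjusted p = 0.95). Camk1, the founding member of its group, had 19.1 to 22.6 CPM in TPA, 17.7 to 20.7 in zinc, 18.8 to 21.8 in glutamate and 17.1 to 21.7 in control. In TPA against control the log2 difference was -0.03 (95% interval -0.21 to 0.15) for Camk1d, 0.01 (-0.09 to 0.10) for Camk1g and -0.0014 (-0.13 to 0.13) for Camk1.

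Among the CaMKII genes, Camk2b had the largest log2 difference between TPA and zinc, which did not pass in edgeR. It had 1200.9, 1115.3, 1172.5, 1206.5 and 1281.7 CPM in the TPA libraries, against 964.7, 923.0, 995.4, 1193.9 and 1197.7 CPM in the zinc libraries. The first 3 zinc libraries lay below every TPA library and zinc replicates 4 and 5 lay among them. The log2 difference was 0.18 (SE 0.07, 95% interval 0.04 to 0.32), and the edgeR adjusted p was 0.199. Over 17 alternatives that p ran from 0.0193 to 0.402 and 3 passed. These were leaving out zinc replicate 4 (0.0484), leaving out the 3 farthest libraries (0.0193), and a fit given with the other settings below. Zinc replicates 4 and 5 held the highest Camk2b values in zinc, so leaving out either widens the difference. The 3 farthest libraries include zinc replicate 5. Calls over all genes in this comparison also rose, from 74 in the main fit to 899 without zinc replicate 4.

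Camk2b in glutamate libraries was 1038.2, 1004.0, 1039.8, 1086.4 and 1264.0 CPM, and in control libraries 1096.0, 1120.1, 1199.5, 1172.8 and 1193.7 CPM. Of the glutamate libraries, 4 lay below the lowest control library and replicate 5 lay above the highest, so the groups overlapped. How many of all genes show such a pattern was not counted. The log2 difference over all 5 was -0.09 (SE 0.07, edgeR adjusted p = 0.95). In zinc against control the log2 difference was -0.13 (95% interval -0.28 to 0.01, edgeR adjusted p = 0.493), and in TPA against glutamate 0.14 (-0.01 to 0.28, edgeR adjusted p = 0.71). In TPA against control it was 0.05 (-0.10 to 0.19).

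Camk2a had 609.5, 626.4, 696.5, 730.2 and 742.7 CPM in TPA, 557.8, 547.3, 637.3, 780.4 and 825.0 in zinc, 592.1, 594.1, 646.2, 584.3 and 830.9 in glutamate, and 616.4, 665.9, 785.1, 746.8 and 711.5 in control libraries. Zinc and glutamate libraries spread most, and each of these groups spanned the whole range of the control libraries. In TPA against zinc the log2 difference of Camk2a was 0.02 (95% interval -0.22 to 0.27), beside 0.18 for Camk2b. In glutamate against control it was -0.12 (-0.36 to 0.13).

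Camk2g, whose product carries calmodulin to the nucleus in cultured rodent neurons, was the steadiest of the 10. It had 135.2 to 143.9 CPM in TPA, 126.6 to 140.2 in zinc, 129.6 to 136.4 in glutamate and 134.8 to 141.2 in control libraries. Its interval was also the narrowest, at -0.06 to 0.07 (log2) in TPA against control, -0.11 to 0.02 in glutamate against control and -0.0021 to 0.13 in TPA against zinc. In TPA against zinc the log2 difference was 0.06 (SE 0.03, edgeR adjusted p = 0.328). Camk2d had 122.1 to 141.2 CPM in TPA, 115.4 to 152.8 in zinc, 117.5 to 128.9 in glutamate and 126.5 to 132.5 in control libraries, with a log2 difference of 0.01 (95% interval -0.11 to 0.12) in TPA against control and -0.0015 (-0.12 to 0.11) in TPA against zinc.

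Several of the genes varied widely between libraries of the same treatment. The SD of log2 CPM within groups was 0.29 for Camk4, larger than for 84.7% of all tested genes, and 0.20 for Camk2a (larger than for 74.4%), while it was 0.04 for Camk2g, larger than for 1.46%. The span between the highest and lowest group mean was 0.11 for Camk4, 0.13 for Camk2a and 0.34 for Camkk2, on the same log2 scale. For Camkk2 the within-group SD was 0.17.

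This variation was shared among several of the genes. After each library's log2 CPM was set relative to its group mean, over 20 libraries, Camk1d and Camk4 had a correlation of r = 0.98, Camk2b and Camkk2 of 0.94, Camk2a and Camkk2 of 0.92, and Camk1d and Camk2a and likewise Camk2a and Camk2b of 0.91. Camk1g ran the other way, with r = -0.88 to Camk4 and -0.85 to Camk1d. So did Camk1, with r = -0.71 to Camk4 and -0.73 to Camk1d (-0.62 and -0.68 without the 3 farthest libraries). Over the 17 libraries left without the 3 farthest, Camk1d and Camk4 had r = 0.96, Camk2b and Camkk2 0.92, Camk2a and Camkk2 0.85, Camk1d and Camk2a 0.87, Camk2a and Camk2b 0.88, Camk1g and Camk4 -0.69, and Camk1g and Camk1d -0.63. The first principal component of all genes held 20.8% of the within-group variance. Its correlation over 20 libraries was 0.95 with Camk2a, 0.94 with Camk1d and with Camkk2, 0.93 with Camk4, 0.87 with Camk2b, -0.84 with Camk1g and -0.04 with Camk2g. Over the 17 libraries it was 0.95 with Camk2a, 0.87 with Camk1d, 0.89 with Camkk2, 0.86 with Camk4, 0.84 with Camk2b, -0.57 with Camk1g and 0.12 with Camk2g. Camk2g had r = 0.34 to Camk2b and 0.24 to Camkk2 over 20 libraries, and 0.52 and 0.47 over 17. Camk2d had r = 0.31 to Camk2b, 0.43 to Camkk2, 0.74 to Camk4 and -0.84 to Camk1g over 20 libraries. Over 17 these were -0.08, 0.02, 0.53 and -0.71. The component had r = 0.59 with Camk2d, 0.53 with Camkk1 and -0.56 with Camk1 over 20 libraries, and 0.24, 0.44 and -0.42 over 17. These are descriptions of libraries that share their depth and preparation.

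The libraries at the ends of this variation were few. Zinc replicate 5 and glutamate replicate 5 were the highest of their groups for Camk4, Camk1d, Camk2a, Camkk2 and Camk2b and the lowest for Camk1g. Zinc replicates 1 and 2 were the lowest zinc libraries for Camk4, Camk1d, Camk2a and Camk2b. Glutamate replicate 4 was the lowest glutamate library for Camk4, Camk1d and Camk2a, but not for Camk2b or Camkk2.

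**Figure D5:**
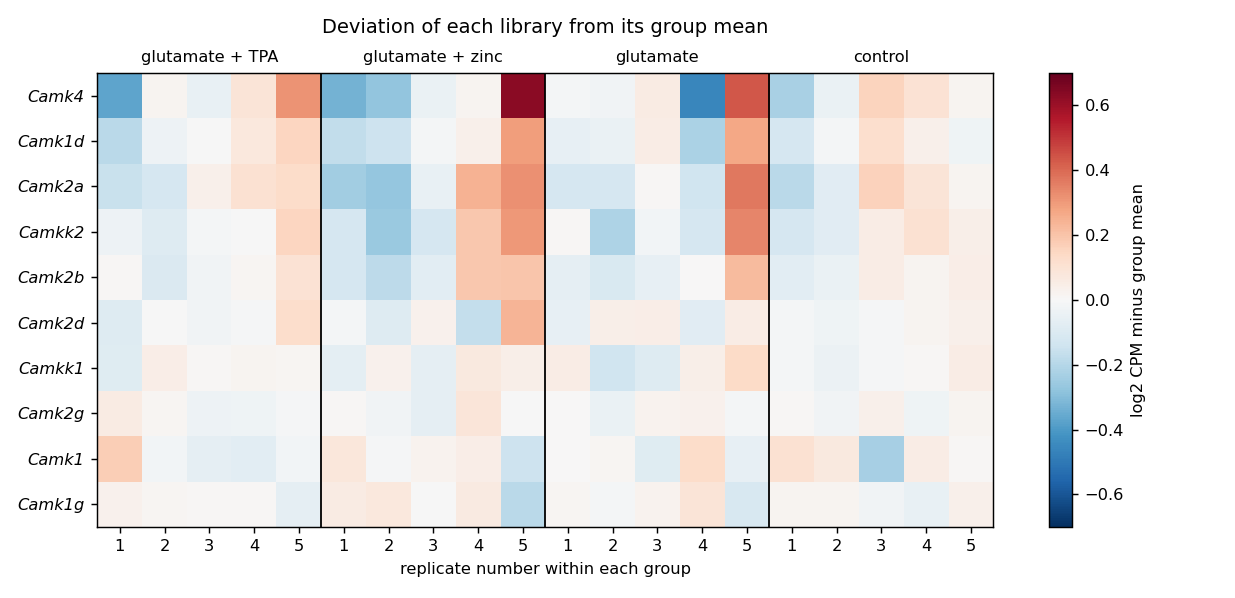
Log2 CPM of each CaM kinase gene in each library minus the mean of its group (colour), with libraries along the horizontal axis and genes down the vertical axis. Camk4, Camk1d, Camk2a, Camkk2 and Camk2b are high together in zinc replicate 5 and glutamate replicate 5, Camk1g is low there, and Camk2g varies least.

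Several lists of cell-type markers moved with the same libraries. Over the 20 libraries, relative to group means, the summed excitatory markers had a correlation of 0.93 with Camk2b, 0.89 with Camkk2 and with Camk2a, and -0.69 with Camk1g. The summed GABAergic markers had -0.92 with Camk1d, -0.90 with Camk2a, -0.82 with Camkk2 and 0.74 with Camk1g. The astrocyte markers had 0.86 with Camk1d, 0.74 with Camk2a, 0.56 with Camkk2 and 0.47 with Camk2b. Fibroblast and meningeal markers, at 2.99 to 6.47 CPM, had 0.83 with Camk2a and 0.75 with Camkk2 and with Camk2b (0.73, 0.58 and 0.59 over the 17 libraries). Pan-neuronal markers had 0.81 with Camk2a, 0.82 with Camkk2 and -0.90 with Camk1g (0.66, 0.63 and -0.72). Oligodendrocyte-lineage markers had 0.15 with Camk2a, 0.05 with Camkk2 and 0.26 with Camk2b (0.44, 0.24 and 0.37). Over the 17 libraries the excitatory markers had 0.90 with Camk2b, 0.87 with Camkk2, 0.88 with Camk2a and -0.48 with Camk1g. The GABAergic markers then had -0.89 with Camk1d, -0.87 with Camk2a, -0.68 with Camkk2 and 0.54 with Camk1g, and the astrocyte markers 0.92 with Camk1d, 0.74 with Camk2a, 0.47 with Camkk2 and 0.42 with Camk2b. Between the groups themselves, the excitatory markers summed to 1126 to 1282 CPM in TPA and 1051 to 1353 in zinc, the GABAergic markers to 1222 to 1441 in TPA and 1209 to 1411 in zinc, and the astrocyte markers to 697 to 846 in TPA and 736 to 890 in zinc. The part of these markers in the Camkk2 and Camk2b differences was not tested.

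Genes elsewhere in the transcriptome that followed these profiles most closely were sought among the 12509 other genes averaging 1 CPM or more, by Pearson correlation of log2 CPM over the 20 libraries. Camk2b was followed most closely by Ddn (r = 0.98), which encodes the dendritic protein dendrin, and by Chst1 (0.97), a sulfotransferase gene. The closest to Camk2a were Dkk3 (0.97), which encodes a secreted protein of the Dickkopf family, and Cx3cl1 (0.97), which encodes the neuronal chemokine fractalkine. The closest to Camk4 were Ildr2 (0.97) and Prkce (0.96), the gene of protein kinase C epsilon. Without the 3 farthest libraries r was 0.98 for Ddn, Chst1, Dkk3 and Cx3cl1, 0.94 for Ildr2 and 0.92 for Prkce. These genes head wider sets, since r was over 0.9 for 100 genes with Camk2b, 74 with Camk2a and 53 with Camk4. It was under -0.9 for 77, 36 and 26 genes.

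The genes around the CaM kinases were read from lists. Of 18 tested genes among the other calmodulin-regulated kinases and CaMKII inhibitors, 0 passed in the 6 comparisons in edgeR, with 6 at an unadjusted p under 0.05 in TPA against zinc, where 16% of all genes reached it. DESeq2 called 2 of the 18 in that comparison, Dapk1 and Pnck, beside 4.14% of all genes. Dapk1, encoding a calmodulin-dependent kinase linked to cell death, averaged 100 ± 3.42 CPM in TPA and 91.7 ± 1.93 CPM in zinc (SD, n = 5 each; log2 0.13, SE 0.04, edgeR adjusted p = 0.0864). Pnck, which encodes a further CaMK1-type kinase, is given in zinc against control, where neither edgeR nor DESeq2 called it. It averaged 54.2 ± 1.06 CPM in zinc and 62.1 ± 3.12 CPM in control (log2 -0.20, SE 0.05, edgeR adjusted p = 0.198). All 5 zinc libraries lay below all 5 control libraries for Pnck, and 2.66% of all genes had groups without overlap in that comparison.

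Calmodulin and its buffers, 9 genes, gave 0 calls in all 6 comparisons in edgeR and in DESeq2, with at most 2 genes at an unadjusted p under 0.05, in TPA against zinc (16% of all genes). Pcp4, whose small product speeds calcium exchange on calmodulin, had a log2 difference of -0.17 in TPA against zinc (SE 0.06, edgeR adjusted p = 0.146). Marcksl1, encoding a calmodulin-binding membrane protein, had 0.09 in TPA against glutamate (SE 0.03, edgeR adjusted p = 0.656). Calcineurin, the calcium-dependent phosphatase that opposes these kinases, and its regulators gave 0 calls among 12 tested genes in edgeR and in DESeq2, with at most 1 at an unadjusted p under 0.05 in a comparison, the share over all genes running from 3.09% to 16%. Its catalytic gene Ppp3cc had a log2 difference of 0.13 in glutamate against control (SE 0.04, edgeR adjusted p = 0.889). Akap5, which anchors calcineurin at the synapse, had -0.16 in TPA against glutamate (SE 0.07, edgeR adjusted p = 0.681).

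Phosphatases that act on the kinases or their targets gave 0 calls among 10 genes in edgeR and in DESeq2, with at most 2 at an unadjusted p under 0.05, in TPA against zinc (16% of all genes) and in zinc against control (11.1%). Ppm1f, which dephosphorylates CaMKII, had a log2 difference of -0.14 in zinc against control (SE 0.05, edgeR adjusted p = 0.301). Ppp1r1b, encoding the phosphatase inhibitor DARPP-32, had -0.25 in glutamate against control (SE 0.08, edgeR adjusted p = 0.889). Synaptic partners and substrates of CaMKII gave 0 calls among 22 genes in edgeR, with 6 at an unadjusted p under 0.05 in TPA against zinc (16% of all genes), and DESeq2 called 1, Cacnb3, in that comparison (4.14% of all genes). Cacnb3, a calcium-channel beta subunit gene, averaged 143 ± 4.98 CPM in TPA and 125 ± 10.7 CPM in zinc (SD, n = 5 each; log2 0.20, SE 0.06, edgeR adjusted p = 0.0848). Rasgrf2, a calcium-regulated Ras exchange factor gene, had -0.14 in zinc against control (SE 0.05, edgeR adjusted p = 0.329). Without the 3 farthest libraries, 8 of the genes named from these lists passed in edgeR in the comparisons given. The adjusted p was 0.0401 for Dapk1, 0.0245 for Pnck, 0.014 for Pcp4, 0.0357 for Marcksl1, 0.00586 for Akap5, 0.031 for Ppp1r1b, 0.0181 for Cacnb3 and 0.0442 for Rasgrf2. Calls over all genes also rose in each of these comparisons in that setting, as given with the other settings below. The genes were named for their small p-values in these data, and the 3 libraries were chosen after seeing the data. These passes are therefore not independent evidence.

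Downstream of CaMK1, CaMK4 and the upstream kinases, 2 of 25 genes rose in TPA against zinc, where 0.354% of all genes rose, and none passed in the other 5 comparisons in edgeR or DESeq2, where at most 4 reached an unadjusted p under 0.05, in zinc against glutamate (5.98% of all genes). Hdac7 encodes a histone deacetylase of the class that CaM kinases export from the nucleus. It averaged 11.4 ± 0.64 CPM in TPA and 9.22 ± 0.53 CPM in zinc (SD, n = 5 each), without overlap, which held for 3.13% of all genes. The log2 difference was 0.31 (SE 0.06, edgeR adjusted p = 0.0363). Srf, encoding serum response factor, averaged 53.6 ± 4.29 CPM in TPA and 44.7 ± 3.23 CPM in zinc (log2 0.26, SE 0.06, edgeR adjusted p = 0.0412). Both calls were lost in edgeR when any 1 of TPA replicates 2 to 5 or zinc replicates 1 to 3 was left out, with adjusted p up to 0.131 for Hdac7 and 0.162 for Srf. The log2 differences over those 10 fits stayed between 0.28 and 0.34 for Hdac7 and between 0.24 and 0.32 for Srf. They were also lost with the GC correction (0.0761 for Hdac7 and 0.144 for Srf) and in a fit of the 2 groups alone (0.0856 for Hdac7 and 0.124 for Srf), and Hdac7 was lost without the low-count filter (0.0509).

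The activity-induced target genes of CREB, which lies downstream of CaMK4, held most of the calls among the lists. Of 20 such genes, 8 rose in TPA against control, where 0.0694% of all genes rose. They were Fos, Fosb, Junb, Egr1, Egr2, Egr4, Npas4 and Klf4. Fosb and Klf4 rose in glutamate against control (0.0208% of all genes), Fosb in zinc against control (0.0208%) and Klf4 in TPA against zinc. In zinc against glutamate and in TPA against glutamate 0 of the 20 passed in edgeR or DESeq2, with 4 of them at an unadjusted p under 0.05 in zinc against glutamate (5.98% of all genes) and 5 in TPA against glutamate (7.15%). DESeq2 called 8 in TPA against control (0.0694% of all genes) and 3 in zinc against control (0.522%). It called 4 in glutamate against control (0.0991%) and 4 in TPA against zinc (4.14%). Those in TPA against zinc were Sik1, Egr1, Npas4 and Egr4, and Klf4, the edgeR call there, was not among them. The median log2 difference over the 20 genes was 0.40 in TPA against control, 0.21 in zinc against control and 0.33 in glutamate against control, where all genes together had medians between -0.0020 and 0.0016. These lists were drawn up with earlier results of the same libraries known, so the direction is not independent evidence.

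Fos, the usual marker of a neuron's recent activity, averaged 77.8 ± 5.02 CPM in TPA and 35.1 ± 4.32 CPM in control (SD, n = 5 each), a 2.22-fold difference (log2 1.15, SE 0.19, edgeR adjusted p = 0.0213). Glutamate alone gave 76.0 ± 19.3 CPM, also with every library above every control library. In that comparison 0.985% of all genes had groups without overlap. The edgeR adjusted p of Fos was 0.0502 (log2 1.12, SE 0.19), and 2.61e-05 in DESeq2. Fos passed in edgeR without glutamate replicate 5 (0.00689). Npas4, a neuronal transcription factor gene induced by calcium, averaged 63.1 ± 5.64 CPM in TPA and 29.0 ± 3.00 CPM in control (log2 1.12, SE 0.16, edgeR adjusted p = 0.00457). Fosb averaged 17.9 ± 0.56 CPM in TPA, 14.3 ± 2.78 in zinc, 18.7 ± 3.07 in glutamate and 8.05 ± 0.69 in control. Its edgeR adjusted p was 2.86e-05 in TPA, 0.00304 in zinc and 1.31e-05 in glutamate, each against control.

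Several of these calls were lost in edgeR when 1 library was left out, although the log2 differences changed little. In TPA against control, Fos was lost without any 1 of control replicates 2 to 5 or TPA replicates 1, 2, 3 and 5 (highest adjusted p 0.0962, log2 difference 1.11 to 1.204 over the 10 fits), and Junb without control replicates 1 to 4 or TPA replicates 1, 3 and 5 (0.111, log2 0.68 to 0.79). Egr4 was lost without any 1 control replicate or TPA replicates 2, 3 and 5 (0.111, log2 0.40 to 0.49), and Egr1 without control replicates 1 and 2 or TPA replicate 5 (0.0568, log2 0.63 to 0.76). Fos and Junb were also lost without the low-count filter (0.067 for Fos and 0.0853 for Junb). The calls of Fosb, Klf4, Egr2 and Npas4 in TPA against control held with each of the 10 libraries left out in turn. Klf4 in TPA against zinc averaged 2.29 ± 0.14 CPM in TPA and 1.22 ± 0.30 CPM in zinc (SD, n = 5 each). Its log2 difference was 0.91 (SE 0.17, edgeR adjusted p = 0.0199), and 0.82 to 1.05 over the 10 fits with 1 library left out. The call was lost without zinc replicate 3 (0.0864) or TPA replicate 5 (0.0617). It was also lost in a fit of the 2 groups alone (0.0627) and with the GC correction (0.0506). DESeq2 did not call Klf4 in this comparison.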

How the data were processed

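The authors deposited whole-number counts per gene for the 20 libraries, TPM (counts divided by gene length and rescaled per library, per the file headers), and tables of their own comparisons. Those deposited tables hold a mean normalized signal, a shrunken log2 fold change, a Wald score and a p-value for each gene. Per the submitters' processing notes, the tools included Trimmomatic 0.36 and SAMtools 1.3.1, alongside HISAT2 2.1.0, DESeq2 1.14.1, R 3.3.0, featureCounts and build mm10. Libraries were stranded per the labels; the strand setting of counting remains not given in the sources used here.

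From the counts, 14411 genes holding 99.98% of counts passed filterByExpr at its defaults and were scaled by TMM and fitted in 1 edgeR 4.0.16 quasi-likelihood model of 4 group means (R 4.3.3, limma 3.58.1), tested first on simulated data. Log2 CPM used a prior count of 2. A count of 3 is 0.0733 CPM in the largest library, which covers counting error only. The replicates are called biological by the labels, but tissue was pooled from 4 embryos, so p-values measure the spread between these libraries. Alternatives were DESeq2 1.42.0, its size factors, no filter, 2 groups alone, a replicate block, a GC correction (span 0.5; 96.3% of genes had a value) and libraries left out.

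The 10 genes and the lists were chosen with earlier results of these data known. All 10 are named. From each list, genes past the threshold and up to 2 with the smallest p-value are named, plus Fos, and profiles most alike are given for 3 genes.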

Additional observations from a re-analysis of the deposited data

Results flagged for a closer look

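In 5 of 40 sets of 5 libraries (10 genes in 4 groups), 1 library stood apart from the other 4 by Dixon's ratio at its 95% critical value. Chance alone flags about 1 in 20 such sets. Camk2a stood at 831 CPM in glutamate replicate 5, where the other 4 held 584 to 646. Camk4 stood at 492 CPM in zinc replicate 5, where the others held 253 to 322. Camk1 stood at 22.6 CPM in TPA replicate 1 (others 19.1 to 19.8), and Camkk1 at 40.2 CPM in the same library (others 43.0 to 44.0). Camk1g stood at 59.6 CPM in TPA replicate 5, where the others held 62.5 to 63.5. Glutamate replicate 5 and zinc replicate 5 are among the 3 libraries farthest from their group means over all genes, and the TPA libraries are not.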

How the results depend on the processing

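Direction and side of the threshold held in 400 of 420 results of single CaM kinase genes under other settings and in 525 of 600 with 1 library left out. No CaM kinase difference had passed in the main edgeR fit, so every direction that turned necessarily belonged to a difference that had not passed. The 3 libraries farthest from their group means and the GC correction (a loess fit of each library on transcript GC content) were chosen after seeing the data. The cause of the shifts below was not tested.

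Over all genes, calls in TPA against zinc numbered 41 without the low-count filter, 6 in a fit of the 2 groups alone, 481 in DESeq2, 1149 without the 3 farthest libraries and 8 with the GC correction. Calls in glutamate against control numbered 5 with DESeq2 size factors, 14 in DESeq2 and 100 without the 3 libraries. Calls in zinc against control numbered 65 in DESeq2 and 231 without the 3 libraries, those in zinc against glutamate 2 and 1, and those in TPA against glutamate 1 and 551 under the same pair of settings. CaM kinase genes called in TPA against zinc numbered 1 in DESeq2 (Camkk2) and 2 without the 3 libraries (Camkk2 and Camk2b).

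Libraries with the same replicate number deviated together weakly. Of 30 pairs, 11 had a correlation over 0.1 (range -0.07 to 0.50), and a library matched its own number best in 12 of 30, so the numbers were not taken to pair the libraries. With replicate number as a block, 422 genes passed in TPA against zinc and 39 in zinc against control, and 2 CaM kinase genes passed in TPA against zinc, Camkk2 (adjusted p = 0.0135) and Camk2b (0.0341). With the block the log2 difference turned to -0.00058 for Camk1d in glutamate against control, 0.0011 for Camk2d in TPA against zinc and 0.00022 for Camk1 in TPA against control.

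In a fit of the 2 groups alone, Camk1 in TPA against control turned to 0.00014. Without the 3 farthest libraries, Camk1d turned to -0.019 in glutamate against control and 0.068 in TPA against zinc. Camk2d turned to 0.063 in TPA against zinc, -0.056 in zinc against control and -0.0077 in zinc against glutamate. In zinc against glutamate Camk1 turned to 0.034, Camk1g to 0.011 and Camk4 to -0.13. With the GC correction Camk1d turned to -0.0035 in glutamate against control, and Camk2d to 0.042 in TPA against zinc and -0.021 in zinc against control.

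With each library left out in turn, genes called ran from 6 to 10 in TPA against control, 3 to 100 in zinc against control, 2 to 5 in glutamate against control, 0 to 2 in TPA against glutamate and 0 to 3 in zinc against glutamate. In TPA against zinc they ran from 5 without zinc replicate 3 to 899 without zinc replicate 4, and CaM kinase genes called from 0 to 2. The log2 differences that turned had these ranges. Camk1 ran from -0.069 to 0.015 in glutamate against control, -0.056 to 0.026 in TPA against control, -0.034 to 0.045 in TPA against glutamate, -0.0075 to 0.055 in TPA against zinc and -0.047 to 0.011 in zinc against glutamate. Camk1d ran from -0.065 to 0.060 in glutamate against control, -0.068 to 0.017 in TPA against control, -0.089 to 0.037 in TPA against glutamate, -0.056 to 0.068 in TPA against zinc, -0.097 to 0.027 in zinc against control and -0.10 to 0.047 in zinc against glutamate. Camk1g ran from -0.0053 to 0.021 in TPA against control and -0.058 to 0.017 in zinc against glutamate. Camk2a ran from -0.036 to 0.11 in TPA against zinc and -0.043 to 0.14 in zinc against glutamate. Camk2b ran from -0.093 to 0.013 in zinc against glutamate. Camk2d ran from -0.025 to 0.030 in TPA against control, -0.041 to 0.063 in TPA against zinc and -0.056 to 0.049 in zinc against control. Camk2g ran from -0.0082 to 0.013 in TPA against control. Camk4 ran from -0.21 to 0.010 in glutamate against control, -0.11 to 0.064 in TPA against control, -0.032 to 0.19 in TPA against glutamate, -0.054 to 0.22 in TPA against zinc, -0.24 to 0.030 in zinc against control and -0.15 to 0.16 in zinc against glutamate. Camkk1 ran from -0.022 to 0.012 in TPA against control. Camkk2 ran from -0.14 to 0.0084 in glutamate against control.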
